A study of Rattus norvegicus with 6 samples.

Results

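The TALE homeobox factors Irx3, Irx5, Meis1, Meis2, Meis3, Pbx2, Pbx3, Pknox1 and Pknox2 were followed in cultured rat mesenchymal stem cells of 2 origins. The members were the rows of the deposited gene table that carry 1 of these 9 symbols, and all 9 were found among 30498 genes. Cells called rcMSC were derived from cranial bone marrow and rbMSC from femur and tibia marrow, with 3 libraries of each. All 6 libraries were labelled as wild type (WT) mesenchymal stem cells, and the sources used here give neither strain, age and passage nor the number of animals. RNA sequencing counts were compared between the groups, and whether the replicates were separate animals or cultures is not said. P-values therefore reflect only how far these libraries spread, which may be technical.

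TALE proteins are transcription factors whose DNA-binding homeodomain carries an insertion of extra amino acids in a loop between its first helices. MEIS and PKNOX proteins (the latter also called PREP) bind PBX proteins, and these pairs join HOX proteins on DNA and sharpen which sites they occupy. The Iroquois (IRX) factors belong to the same superclass but are not known as general HOX partners, and act in patterning of the limb bud, heart, nervous system and face.

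In short, Irx3, Irx5 and Meis2 were between 2.11-fold and 2.67-fold higher in rcMSC, and Pknox2, the scarcest member, was 1.59-fold higher. The call of Pknox2 depended on which single library was left out, unlike those of Irx3, Irx5 and Meis2. The other 5 members (Meis1, Meis3, Pbx2, Pbx3 and Pknox1) did not pass the threshold in the comparison of all 6 libraries. Their log2 fold changes lay between -0.16 and 0.15. Of the Hox genes tested, whose products the MEIS, PBX and PKNOX proteins accompany, 18 of 19 fell in rcMSC, against 23.2% of all genes.

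The libraries held 21340290 to 26928079 counts, and 1 count equalled 0.0364 to 0.0468 CPM (counts scaled to library size). The library labelled rcMSC replicate 3 stood apart from the other rcMSC libraries: the chi-square per degree of freedom of its counts against them was 42.8 and 42.0, where all other pairs within a group gave 2.69 to 3.16. The log2 fold change of each member is therefore given with and without that library. All 11 markers of mesenchymal stromal cells were detected, among them Thy1, Cd44 and Prrx1, with 6 higher and 5 lower in rcMSC. Markers of several other cell types also differed between the groups, where 22.6% of all genes tested were higher in rcMSC and 23.2% lower. Of 16 macrophage markers, 11 were lower in rcMSC and 0 higher in edgeR, and their summed level was 616 to 623 CPM in rcMSC and 1023 to 1031 CPM in rbMSC, with none at 0. Of 8 pericyte and smooth muscle markers tested, 7 were lower in rcMSC (summed level 1618 to 1782 against 4050 to 4241 CPM, most of it from Acta2). Of 8 bone and cartilage cell markers tested, 6 were lower and 2 higher in rcMSC, with a summed level of 179 to 216 CPM in rcMSC and 519 to 530.0 CPM in rbMSC. Most of the rbMSC sum came from Acan, the gene of the cartilage proteoglycan aggrecan, at 314 to 335 CPM in rbMSC and 12.5, 14.8 and 40.1 CPM in rcMSC. The higher markers were Runx2 and Col2a1, and Bglap had 0 counts. The part of these cells in the results on TALE genes was not tested. In bulk RNA, fewer cells of a type and less RNA per cell cannot be told apart.

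Of the 9 members, all were tested, 4 were higher in rcMSC and 0 were lower (edgeR quasi-likelihood test, Benjamini-Hochberg adjusted p under 0.05 over 14836 genes). At an unadjusted p under 0.05, 5 members differed and 1 of them, Pknox1, was lower. Over all genes tested 45.8% were called in either direction, 22.6% higher and 23.2% lower, so the share of members called at all was close to the background and all the calls lay on the higher side. At least 2-fold higher were 3 members (Irx3, Irx5 and Meis2), where the share over all genes was 5.76%. The median log2 fold change was 0.15 over the members and 0.02 over all genes.

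To show the sequence next to the genes that rose, the 250 bases upstream of the RefSeq start in the rat build GRCr8 are printed for Irx3, for its relative Irx2 (an Iroquois gene outside the members that rose with it) and for the first of the starts listed for Pknox2. The coordinates are chr19:31384868-31385117 on the plus strand for Irx3, chr1:32494931-32495180 on the minus strand for Irx2 and chr8:44979755-44980004 on the minus strand for Pknox2. Each reads 5′ to 3′ towards the start, and capitals mark matches on either strand to the motifs named after them.
Irx3: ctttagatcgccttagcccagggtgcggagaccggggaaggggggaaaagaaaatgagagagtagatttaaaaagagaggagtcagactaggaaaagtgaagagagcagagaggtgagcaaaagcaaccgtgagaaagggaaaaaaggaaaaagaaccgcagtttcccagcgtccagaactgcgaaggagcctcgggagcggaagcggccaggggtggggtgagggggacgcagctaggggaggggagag
Irx2: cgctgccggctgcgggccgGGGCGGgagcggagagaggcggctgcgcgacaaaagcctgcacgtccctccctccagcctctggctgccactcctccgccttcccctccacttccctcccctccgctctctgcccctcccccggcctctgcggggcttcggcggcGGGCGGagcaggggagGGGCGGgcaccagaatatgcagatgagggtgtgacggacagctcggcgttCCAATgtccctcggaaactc
Pknox2: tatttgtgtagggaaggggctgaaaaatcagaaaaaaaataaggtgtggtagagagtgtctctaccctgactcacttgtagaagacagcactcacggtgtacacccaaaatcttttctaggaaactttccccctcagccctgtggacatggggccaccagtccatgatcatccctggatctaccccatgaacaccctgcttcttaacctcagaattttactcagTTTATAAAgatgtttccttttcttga

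The motifs searched were the core site of MEIS and PKNOX proteins (TGACAG), a PBX-HOX composite site (TGATNNAT), the Iroquois palindrome (ACANNTGT), the GC box (GGGCGG), the CCAAT box (CCAAT) and the TATA box (TATAAA). The Irx3 window held none of them. The Irx2 window held 3 GC boxes and a CCAAT box 20 bases before the start. The Pknox2 window held a TATA box in both orientations, in overlapping letters 26 and 24 bases before the start. A second Pknox2 window, at chr8:44889187-44889436 on the minus strand, held TGACAG 198 bases and ACACATGT 32 bases before its start. Among all 33469 windows of this length, 15.8% held the MEIS core site, 7.96% the PBX-HOX site and 6.71% the Iroquois palindrome. The shares were 30.5% for the GC box, 34.0% for the CCAAT box and 12.9% for the TATA box. A match is a description of letters and not a measured binding site. Windows were found for 6 of the 9 members, namely Irx3, Meis1, Meis3, Pbx2, Pknox1 and Pknox2, and none for Irx5, Meis2 and Pbx3. The 8 windows of these members had a GC content of 43.6% to 74.0%, against a median of 51.2% over all windows. None of the other member windows held any of the sites named for MEIS, PBX, HOX or Iroquois proteins.

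Irx3 (ENSRNOG00000011533, chromosome 19 from 15211878 to 15215317 in mRatBN7.2, plus strand) encodes an Iroquois factor of neural and limb patterning that also acts in fat cells. Its level was 6.36, 4.85 and 5.66 CPM in rbMSC replicates 1 to 3 and 14.9, 15.6 and 14.6 CPM in rcMSC replicates 1 to 3. All rcMSC libraries lay above all rbMSC libraries, with no overlap. The means were 15.0 ± 0.53 and 5.62 ± 0.76 CPM (SD over n = 3 libraries), which gave a log2 fold change of 1.42 ± 0.12 (SE; adjusted p = 7.87e-06 in edgeR), and 1.44 without rcMSC replicate 3.

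Irx5 (ENSRNOG00000011180, chromosome 19 from 14624225 to 14642318, minus strand), whose human counterpart causes a craniofacial syndrome when mutated, was the more abundant of the pair per gene length in every library. It had 11.2, 11.6 and 12.6 CPM in the rbMSC libraries and 26.4, 26.1 and 26.5 CPM in the rcMSC libraries. The groups did not overlap, and the rcMSC libraries were close to each other. The means were 26.3 ± 0.22 and 11.8 ± 0.74 CPM, a log2 fold change of 1.16 ± 0.08 (SE; adjusted p = 2.32e-06 in edgeR), and 1.15 without rcMSC replicate 3. The 95% intervals of the log2 fold changes of Irx3 (1.15 to 1.69) and Irx5 (0.97 to 1.34) overlapped. The ratio of Irx3 to Irx5 per gene length was 0.574, 0.425 and 0.454 in rbMSC and 0.570, 0.607 and 0.559 in rcMSC, so the groups overlapped and the balance within the pair did not separate them.

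Meis2 (ENSRNOG00000004730, chromosome 3 from 102742900 to 102949696, minus strand) encodes a MEIS factor with a known role in cranial neural crest and palate development. Its level was 21.6, 23.0 and 20.002 CPM in rbMSC and 48.7, 46.0 and 41.3 CPM in rcMSC. The lowest rcMSC library, replicate 3, still lay well above the highest rbMSC library. With means of 45.3 ± 3.76 and 21.5 ± 1.49 CPM, Meis2 rose by a log2 fold change of 1.08 ± 0.09 (SE; adjusted p = 5.22e-06 in edgeR), and by 1.14 without rcMSC replicate 3.

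Meis1 (ENSRNOG00000004606, chromosome 14 from 93155419 to 93294265, minus strand), known from blood stem cells, leukaemia and the proximal limb, depended on a single library. It had 34.3, 34.6 and 31.96 CPM in rbMSC, and 27.6, 26.3 and 44.3 CPM in rcMSC. The first and second rcMSC libraries lay below every rbMSC library, and rcMSC replicate 3 lay above every one. Over all libraries the log2 fold change was -0.04 ± 0.19 (SE; adjusted p = 0.879 in edgeR), with a 95% interval of -0.48 to 0.40. Without rcMSC replicate 3 it was -0.32 ± 0.07 (SE; adjusted p = 0.000178 in edgeR), past the threshold as lower in rcMSC. In the same library the collagen gene Col1a1 was at 43167 CPM, against 35572 and 34912 CPM in rcMSC replicates 1 and 2, while the mesenchymal factor Prrx1 was at 701 CPM against 817 and 813 CPM. Macrophage markers went both ways there: the receptor Csf1r was at 77.3 CPM against 41.4 and 43.6 CPM, and the lysozyme gene Lyz2 at 231 CPM against 287 and 279.5 CPM. Larger differences there were those of Col2a1 (25.6 CPM against 8.01 and 9.68) and the pericyte marker Cspg4 (137.5 CPM against 60.2 and 65.3). The macrophage marker Tyrobp was lower there, at 5.28 CPM against 9.94 and 12.5 CPM. The part of these differences in the level of Meis1 was not tested.

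Meis3 (ENSRNOG00000021390, chromosome 1 from 76861924 to 76872691, plus strand), the least studied MEIS gene, had 14.6, 13.8 and 15.8 CPM in rbMSC and 13.5, 13.3 and 13.4 CPM in rcMSC. The groups did not overlap, by a narrow margin, but the difference did not pass the test. Its log2 fold change was -0.14 (95% interval -0.34 to 0.07, adjusted p = 0.26 in edgeR), the same to 2 decimals without rcMSC replicate 3.

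**Figure D1:**
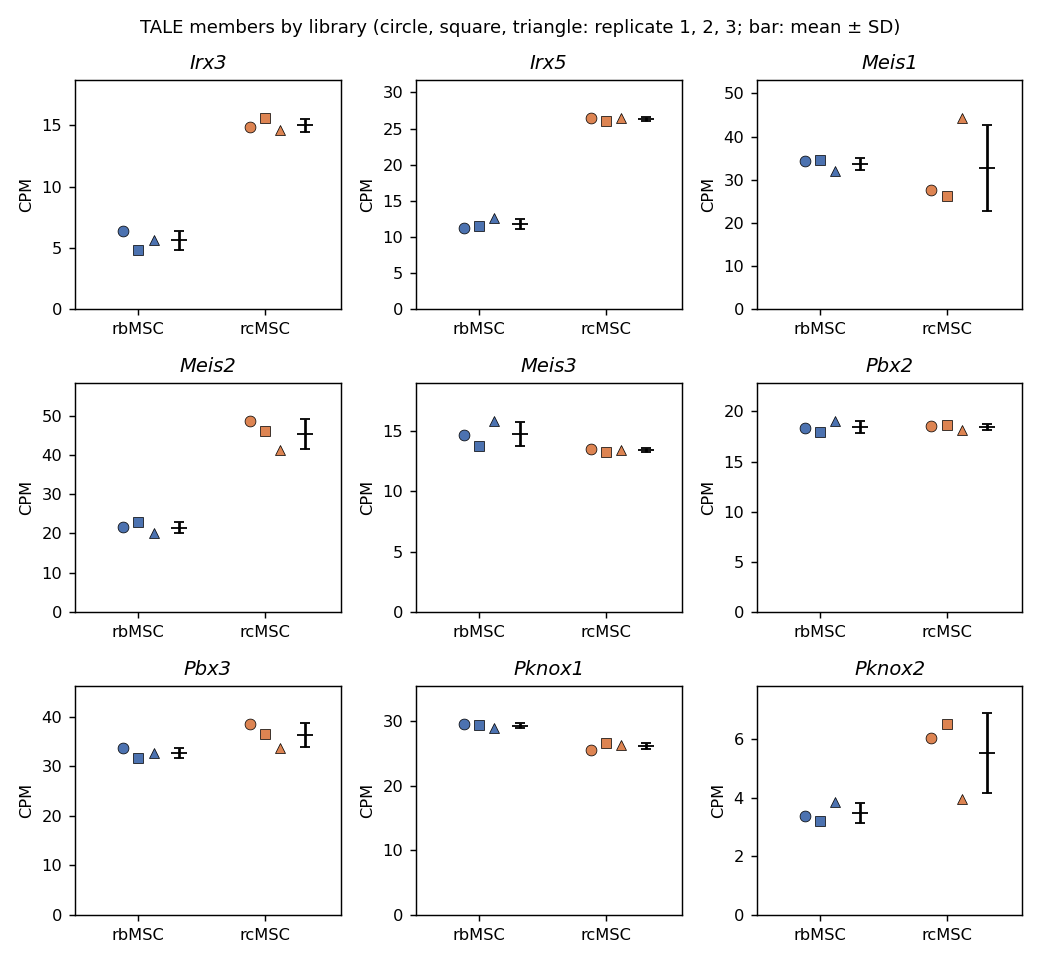
Level of each of the 9 TALE members in each library, in CPM on a linear axis from 0, with circles, squares and triangles for replicates 1, 2 and 3 and a bar for the mean ± SD of 3 libraries. Irx3, Irx5 and Meis2 show a wide gap between rbMSC and rcMSC, while for Meis1 rcMSC replicate 3, at 44.3 CPM, stands above the other rcMSC libraries at 27.6 and 26.3 CPM.

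The PBX members, the shared partners of MEIS, PKNOX and HOX proteins, differed little. Pbx2 (ENSRNOG00000000440, chromosome 20 from 4151500 to 4156425, minus strand) had 18.3, 17.9 and 19.1 CPM in rbMSC and 18.5, 18.7 and 18.1 CPM in rcMSC. The groups overlapped, and the log2 fold change was -0.00079 (95% interval -0.18 to 0.18, adjusted p = 0.995 in edgeR). Without rcMSC replicate 3 it was 0.011. Pbx3 (ENSRNOG00000022162, chromosome 3 from 17488693 to 17682791, minus strand) had 33.8, 31.6 and 32.7 CPM in rbMSC and 38.6, 36.5 and 33.8 CPM in rcMSC. Its highest rbMSC library and rcMSC replicate 3 were equal to 3 digits. The log2 fold change of Pbx3 was 0.15 ± 0.08 (SE; adjusted p = 0.124 in edgeR), and without rcMSC replicate 3 it was 0.20 and passed (adjusted p = 0.00948 in edgeR).

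The PKNOX members, which bind PBX as MEIS proteins do, differed in the sign of their fold changes. Pknox1 (ENSRNOG00000001184, chromosome 20 from 9662899 to 9703727, plus strand), a broadly expressed partner of PBX, had 29.6, 29.3 and 28.9 CPM in rbMSC and 25.5, 26.5 and 26.3 CPM in rcMSC. The groups did not overlap, yet the log2 fold change was only -0.16 ± 0.07 (SE; adjusted p = 0.077 in edgeR). Without rcMSC replicate 3 it was -0.17, just past the threshold (adjusted p = 0.0494 in edgeR).

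Pknox2 (ENSRNOG00000028856, chromosome 8 from 36600636 to 36790940, minus strand), its less widely expressed relative, had 3.37, 3.20 and 3.84 CPM in rbMSC and 6.05, 6.52 and 3.96 CPM in rcMSC. All rcMSC libraries were higher, but rcMSC replicate 3 was barely above the highest rbMSC library. The log2 fold change was 0.67 ± 0.20 (SE; adjusted p = 0.0219 in edgeR), and 0.85 without rcMSC replicate 3 (adjusted p = 1.93e-05 in edgeR). Pknox2 no longer passed when replicate 1 or 2 of rbMSC (adjusted p = 0.076 and 0.0868 in edgeR) or replicate 1 or 2 of rcMSC (0.0738 and 0.0857) was left out.

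Between groups, 7 of the 9 members had libraries that did not overlap, 5 of them higher in rcMSC, where 57.1% of all genes tested did not overlap and 28.3% did so with rcMSC higher. Among these 5, Pbx3 was separated only by 33.79 CPM in rcMSC replicate 3 against 33.78 CPM in rbMSC replicate 1. Pknox2 was separated by 3.96 CPM in rcMSC replicate 3 against 3.84 CPM in rbMSC replicate 3. Without rcMSC replicate 3, 5 members were called higher (Irx3, Irx5, Meis2, Pbx3 and Pknox2) and 2 lower (Meis1 and Pknox1). In that comparison 60.1% of 15096 genes were called, 29.9% higher and 30.2% lower. With limma voom and sample weights the same 5 members were higher and the same 2 lower, where 59.0% of all genes were called, 29.5% in each direction. DESeq2 called 4 members higher and 0 lower, where 3199 of 14836 genes were called higher and 3321 lower.

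**Figure D2:**
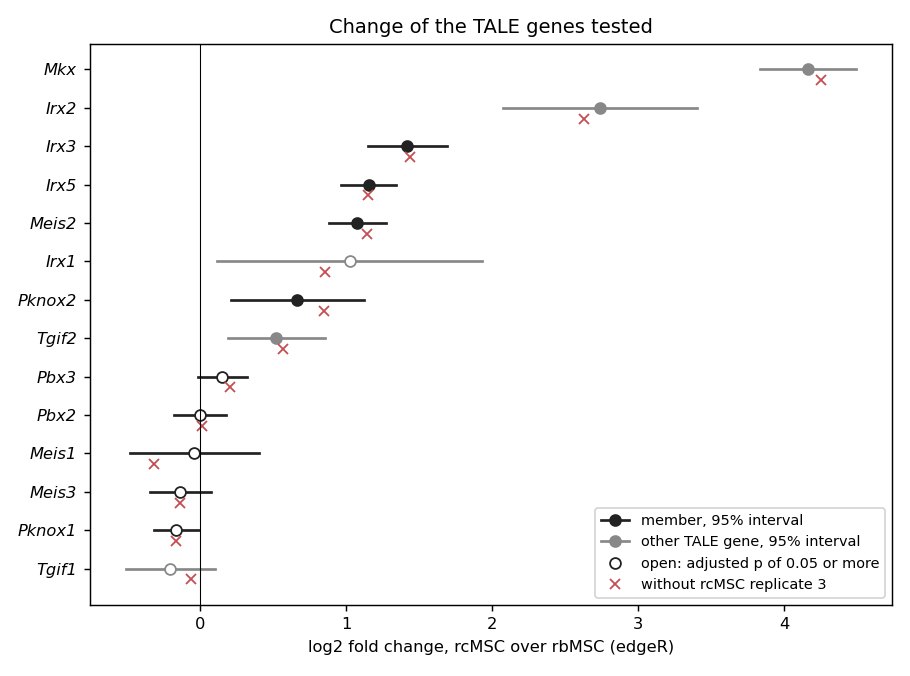
Log2 fold change of rcMSC over rbMSC for 14 TALE genes tested, with the 95% interval from edgeR as a line, filled points for an adjusted p under 0.05 and crosses for the value without rcMSC replicate 3. Mkx lies highest at 4.16, Irx3, Irx5 and Meis2 lie between 1.08 and 1.42, and the cross of Meis1 lies at -0.32, apart from its point at -0.04.

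Beside the members, 8 genes of the TALE superclass were followed: Irx1, Irx2, Irx4, Irx6, Mkx, Pbx4, Tgif1 and Tgif2. Of these, 5 had enough counts for the test, 3 were higher in rcMSC and 0 lower. Over all genes tested, 22.6% were higher and 23.2% lower. Mkx (mohawk), a factor of tendon cells, had 1.68, 2.29 and 2.42 CPM in rbMSC and 42.8, 39.2 and 33.5 CPM in rcMSC. Its log2 fold change of 4.16 ± 0.15 (SE; adjusted p = 1.15e-08 in edgeR) lay above that of every member. Irx2 rose from 0.672 ± 0.35 to 4.59 ± 0.58 CPM, a log2 fold change of 2.74 ± 0.30 (SE; adjusted p = 4.36e-05 in edgeR). Tgif2, a repressor of TGF-beta responses, rose by 0.52 (adjusted p = 0.0157 in edgeR). Tgif2 no longer passed when replicate 1 of rbMSC or of rcMSC was left out (adjusted p = 0.0644 and 0.0565 in edgeR).

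Tgif1, a relative of Tgif2 that is mutated in some cases of holoprosencephaly, did not pass (log2 fold change -0.20, adjusted p = 0.248 in edgeR). Irx1 had 21 counts in rbMSC and 49 in rcMSC, and its log2 fold change of 1.02 did not pass (adjusted p = 0.0628 in edgeR). Pbx4 had 23 counts in rbMSC and 19 in rcMSC and was not tested. Irx6 had 1 count in each group. Irx4 had 0 counts in every library, which allows a level of up to 0.109 to 0.14 CPM per library for counting error only.

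Levels of different genes were compared as CPM per kilobase of the deposited gene length, which depends on how fully each gene is annotated. In rbMSC the members ran from Pbx3 (11.2 ± 0.37 CPM per kilobase) through Meis1 (9.58), Meis3 (7.47), Pknox1 (6.58), Pbx2 (6.45), Irx5 (4.43), Meis2 (2.32) and Irx3 (2.14) to Pknox2 (0.911 ± 0.09). Neighbours in this order overlapped between libraries for Pknox1 and Pbx2 and for Meis2 and Irx3, and were separate otherwise. In rcMSC the order was Pbx3 (12.4 ± 0.83), Irx5 (9.88), Meis1 (9.33 ± 2.86), Meis3 (6.80), Pbx2 (6.45), Pknox1 (5.88), Irx3 (5.71), Meis2 (4.90) and Pknox2 (1.45 ± 0.36). Here Irx5 and Meis1 overlapped, as did Pknox1 and Irx3. Pbx3 had the highest mean and Pknox2 the lowest in both groups, and in rcMSC the highest Meis1 library (12.6) lay above the lowest Pbx3 library (11.6). Irx5 moved from the sixth place to the second.

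**Figure D3:**
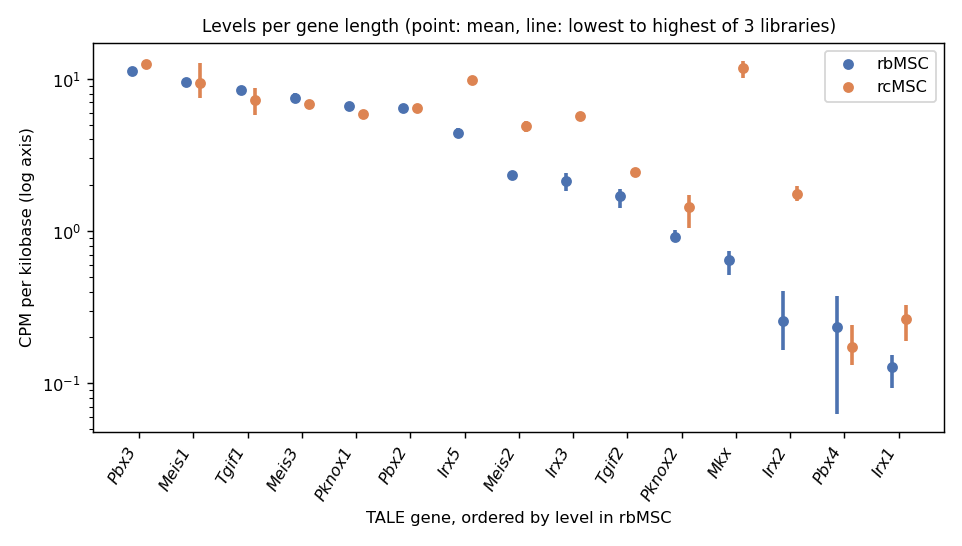
Level of TALE genes in CPM per kilobase on a log axis, ordered by the rbMSC mean, with a point for the mean and a line from the lowest to the highest of 3 libraries. Genes on the left lie at similar levels in both groups, and Irx5, Meis2, Irx3, Irx2 and Mkx are among those that lie higher in rcMSC. Irx4 and Irx6, with 0 and 2 counts in all, are left out.

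The split of output within each family was computed per library as the share of the summed counts per kilobase, which does not depend on library scaling. Meis2 made up 11.9%, 12.8% and 11.2% of the MEIS family in rbMSC, and 26.3%, 25.9% and 18.7% in rcMSC. Meis1 made up 47.2% to 51.0% in rbMSC, and 39.4%, 39.0% and 52.8% in rcMSC. Its share was thus lower in the first and second rcMSC libraries and higher in rcMSC replicate 3. The ratio of Meis2 to Meis1 per gene length was 0.237 to 0.252 in rbMSC and 0.669, 0.663 and 0.353 in rcMSC, higher in every rcMSC library whichever way Meis1 moved. The summed MEIS level was 19.4 ± 0.12 CPM per kilobase in rbMSC and 21.02 ± 2.52 in rcMSC, so that the groups overlapped while the composition differed.

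The ratio of Pbx3 to Pbx2 per gene length was 1.80, 1.73 and 1.68 in rbMSC and 2.04, 1.91 and 1.82 in rcMSC. The groups did not overlap, by a narrow margin, and neither gene passed the threshold in the comparison of all libraries. In the PKNOX pair, Pknox2 took 11.3% to 13.4% in rbMSC, and 21.6%, 22.3% and 14.9% in rcMSC.

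The summed level of the Iroquois family was 6.97, 6.43 and 7.47 CPM per kilobase in rbMSC and 17.5, 17.5 and 17.8 in rcMSC. Irx5 took 60.5% to 67.4% in rbMSC and 55.8% to 56.6% in rcMSC, and Irx2 2.55% to 5.43% and 8.95% to 11.2%. The share of Irx3 was 28.6% to 34.7% in rbMSC and 31.2% to 34.0% in rcMSC, and the groups overlapped.

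**Figure D4:**
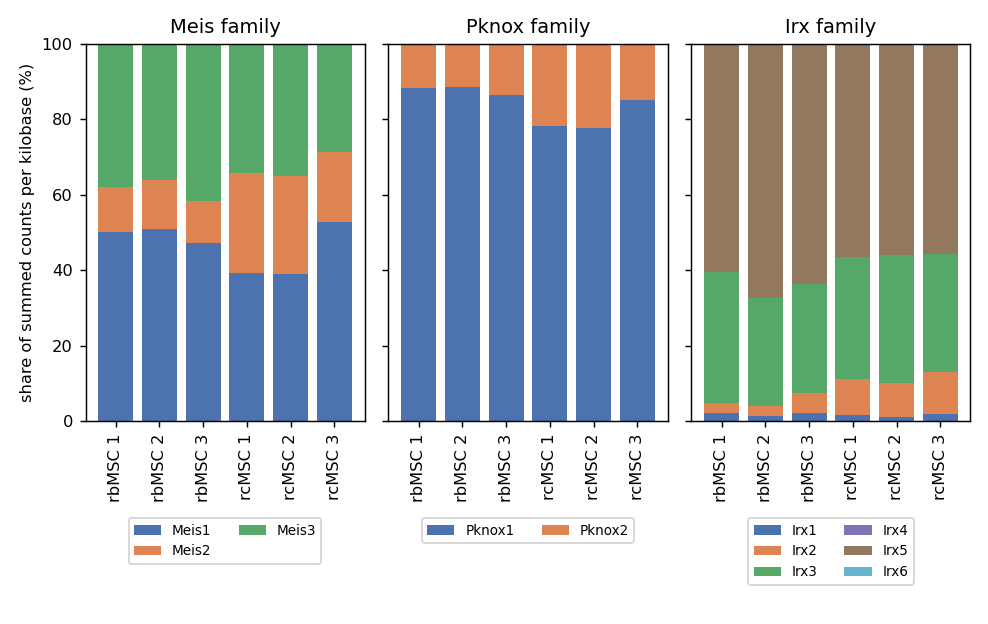
Share of each gene in the summed counts per kilobase of its family, in percent, as 1 stacked bar per library for the MEIS, PKNOX and Iroquois families. The Meis2 part of the bars is larger in rcMSC (18.7% to 26.3%) than in rbMSC (11.2% to 12.8%), and Irx5 takes the largest part of the Iroquois bars in all 6 libraries.

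Irx3 and Irx5 lie on chromosome 19 with their starts 570 kb apart, in a gene cluster known for long-range enhancers within the neighbouring gene Fto. Within 1 Mb of the pair, 25 genes are annotated in the table and 11 were tested. Mmp2, a gelatinase that remodels matrix, also rose, by a log2 fold change of 1.24 ± 0.06 (SE; adjusted p = 1.03e-07 in edgeR). Lpcat2, an enzyme of membrane lipid synthesis next to Mmp2, fell by 0.93 (adjusted p = 4e-05 in edgeR). Thus 2 adjacent genes of the region went in opposite directions.

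On the other side of Irx3, smaller changes were seen. Rpgrip1l, a gene of the primary cilium, rose by 0.46 (adjusted p = 0.00448 in edgeR). Fto, an RNA demethylase, rose by 0.26 (adjusted p = 0.0049 in edgeR), and Rbl2, a relative of the retinoblastoma protein, by 0.25 (adjusted p = 0.00683 in edgeR). Chd9, a chromatin remodeller, fell by 0.52 (adjusted p = 0.000937 in edgeR). Aktip did not pass (0.17, adjusted p = 0.187 in edgeR), and passed without rcMSC replicate 3 (0.28, adjusted p = 0.000572 in edgeR). Of the 7 neighbours listed and found (no row carried the symbol Crnde), 4 were higher and 2 lower, with a median of 0.25. The shares over all genes tested were 22.6% higher and 23.2% lower.

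A long noncoding RNA gene without a symbol (ENSRNOG00000068096) starts 1.87 kb from the Irx5 start on the opposite strand. It rose by 0.44 ± 0.15 (SE; adjusted p = 0.0377 in edgeR), beside 1.16 for Irx5, and was chosen after its values were seen. Its annotated span does not overlap Irx5. None of the 9 members overlapped another gene of the table.

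**Figure D5:**
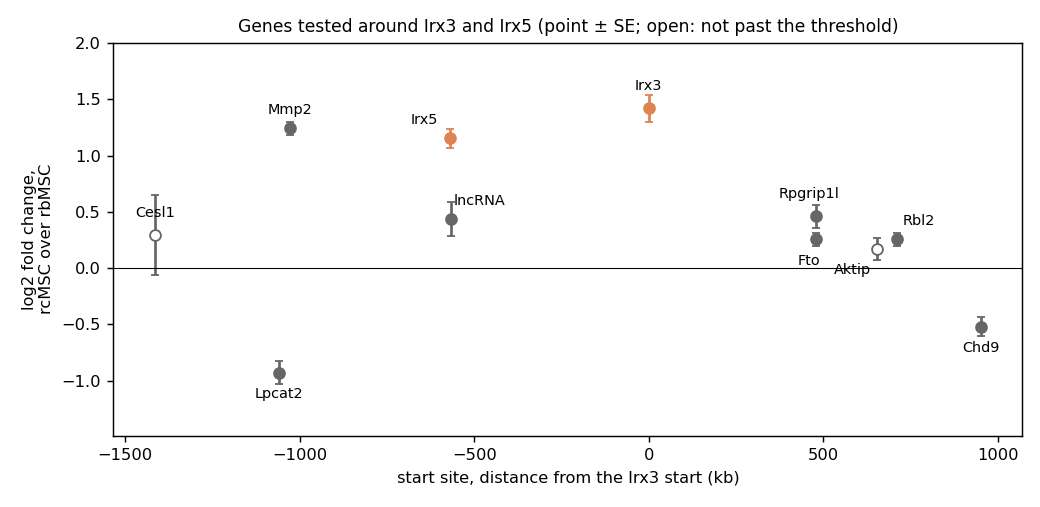
Log2 fold change (rcMSC over rbMSC, ± SE) of the 11 genes tested around Irx3 and Irx5, against the distance of their starts from the Irx3 start in kb. Irx3, Irx5 and Mmp2 lie above 1, genes to the right of Irx3 lie near 0 to 0.5 except Chd9 at -0.52, and open points did not pass the threshold.

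The DNA partners of MEIS, PBX and PKNOX proteins were then set beside the members. Of the 39 Hox genes listed, 37 were in the table and 19 were tested, of which 18 were lower in rcMSC and 0 higher in edgeR, with a median log2 fold change of -6.44. The shares over all genes tested were 23.2% lower and 22.6% higher. Summed per kilobase, the Hox genes had 93.6 ± 1.95 CPM in rbMSC and 3.01 ± 0.43 in rcMSC. The summed level of the 7 MEIS, PBX and PKNOX members was 44.5 ± 0.59 CPM per kilobase in rbMSC and 47.2 ± 1.44 in rcMSC. By these sums, over 37 Hox genes and 7 partners, Hox genes were above the partners in rbMSC and far below them in rcMSC. The order in rbMSC depends on which genes were summed. The partner sum differed between the groups by a small amount. Hoxb3 was not tested, with 4 counts in rbMSC and 35 in rcMSC. Hoxa9, a well studied partner of Meis1, totalled 1147 counts in rbMSC against 6 in rcMSC, for a log2 fold change of -7.68 (adjusted p = 2.79e-08 in edgeR) that was -8.63 without rcMSC replicate 3 and -7.10 without rcMSC replicate 1. Hoxc9, Hoxc5 and Hoxa3 had 2 or 3 counts in rcMSC, with ratios of rbMSC to rcMSC of 271 (74.7 to 2246), 220.0 (74.9 to 1070) and 170.1 (57.8 to 828), where the exact binomial 95% intervals cover counting error only.

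Of 11 other factors known to bind DNA with PBX or MEIS proteins, 5 were tested, 2 were higher in rcMSC and 0 lower, with a median of 0.13. The shares over all genes tested were 22.6% higher and 23.2% lower. En1, an engrailed homeobox factor, had a mean of 4.40 ± 0.15 CPM in rbMSC and rose to 21.9 ± 1.06 in rcMSC (log2 fold change 2.31, SE 0.10, adjusted p = 5.73e-08 in edgeR). Klf4, a zinc finger factor, rose by 1.32 (adjusted p = 4.6e-07 in edgeR). Pdx1, Myod1, En2, Tlx1 and Tlx2 had no count in any library.

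Cofactors that bind TALE proteins differed by small amounts. Of 7 with a single row (Ep300 has 2 rows and was left out), 1 was higher and 1 lower, with a median of -0.0010. The shares over all genes tested were 22.6% higher and 23.2% lower. The corepressor Ncor1 fell by 0.23 (adjusted p = 0.00594 in edgeR). Pbxip1, a protein that binds PBX and limits its action, rose by 0.20 (adjusted p = 0.0121 in edgeR), and it no longer passed without rbMSC replicate 2 (adjusted p = 0.0601 in edgeR).

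Retinoic acid is a known inducer of Meis genes, and 15 genes of its synthesis, breakdown and reception were followed. Among 12 with enough counts, rcMSC was higher for 4 and lower for 3, with a median of 0.15. The shares over all genes tested were 22.6% higher and 23.2% lower. Crabp1, a retinoic acid binding protein, had 6 counts in rbMSC and 155 in rcMSC (log2 fold change 4.43, adjusted p = 1.51e-05 in edgeR). Of the synthesis enzymes, Aldh1a2 fell by 3.14 and Aldh1a3 rose by 2.88 (adjusted p = 2.66e-05 and 2.64e-05 in edgeR). Aldh1a1 was at 0.28 and Rdh10 at -0.40, neither past the threshold (adjusted p = 0.166 and 0.253 in edgeR). The other calls were Crabp2 (2.26) and Rarg (0.36), which rose, and the breakdown enzyme Cyp26b1 (-1.36) and Dhrs3 (-1.05), which fell.

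Pbx and Irx genes act in the early limb bud, and of 12 tested genes of that network 2 were higher and 6 lower, with a median of -0.37. Over all genes tested, 22.6% were higher and 23.2% lower. For Pitx1, which specifies the hindlimb, rbMSC held 299 counts and rcMSC 3, and the ratio was 113.8 (38.6 to 555). Hand2, a factor upstream of Shh in the limb, fell by 4.55 (adjusted p = 0.000344 in edgeR), and its log2 fold change was -6.28 without rcMSC replicate 2 and -3.97 without rcMSC replicate 1. Alx4, a factor of the limb and skull, rose by 4.24 (adjusted p = 2.51e-07 in edgeR). Of the genes linked to heat production in fat cells, where Irx3 and Irx5 are known to act, 5 were tested, 3 were lower and 0 higher in edgeR (median -0.71). These were Pparg (-2.25), Prdm16 (-1.15) and Arid5b (-0.69), while Ppargc1a and Cidea did not pass (adjusted p = 0.614 and 0.111 in edgeR). Ucp1 had 0 counts in every library. Dio2, with 3 counts in rbMSC and 19 in rcMSC, was not tested. Of 6 fat cell markers, Adipoq, Lep and Cidec had too few counts for the test. The 3 tested, Plin1, Fabp4 and Lpl, were lower in rcMSC. Lpl, the lipoprotein lipase gene, made up most of the summed level of these markers, with a mean of 65.1 CPM in rcMSC and 338 CPM in rbMSC. Plin1 and Fabp4 had means of 1.43 and 1.85 CPM in rbMSC and 0.0255 and 0.581 CPM in rcMSC. The part of fat cells in these values was not tested.

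The genes most like Irx3, Irx5 and Meis2 in pattern were found among 11017 genes by the root mean square difference of centred log2 CPM over the 6 libraries, which reflects the group difference and the order of libraries and is a description. For Irx3 they were AABR07018533.1 (0.066), the cell adhesion gene Cntn2 (0.072) and Rab42 (0.10). For Irx5 they were the serine synthesis gene Psat1 (0.033), Adamtsl3 (0.046) and Igf2r (0.059). For Meis2 they included the homeobox gene Meox2 (0.062) and Gclc (0.062). No member was among the 3 nearest genes of another.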

How the data were processed

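RNA sequencing libraries of cultured rat mesenchymal stem cells, 3 rcMSC and 3 rbMSC, were grouped by their titles. Reads were paired, of 150 nt. Per the labels' protocols, the authors trimmed them (Trim Galore 0.6.7, Trimmomatic 0.39), aligned them with STAR 2.7.9a to the build mRatBN7.2 and assigned them to genes by featureCounts 2.0.1; the submitters' processing notes also list DESeq2 1.20.0. The authors deposited unnormalized read counts for each gene, beside a gene length equal to the union of the listed exons. Not given in the sources used here were strand setting, annotation release and treatment of multiply mapping reads, so reads shared by paralogs cannot be told apart.

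Counts were compared in edgeR 4.0.16 under R 4.3.3 with its quasi-likelihood test (TMM scaling, filterByExpr, robust dispersions, Benjamini-Hochberg adjustment over 14836 genes, threshold 0.05). The SE equals the absolute log2 fold change over the root of the F statistic, and CPM is TMM-scaled. Members and lists were chosen with earlier results of these data known, so list counts and medians are descriptions. TALE genes and all neighbours listed at the Irx3 locus were named, then up to 3 genes of each other list (4 Hox genes) with the largest change past the threshold (mean log2 CPM 0 or more), and the 3 most alike genes (prior count 2, mean log2 CPM 1 or more) of the 3 members that changed most. Further genes of some lists were also named. Alternatives were other scalings, filters, DESeq2 1.42.0, limma 3.58.1 (voom), non-robust dispersions, a block for replicate number, and leaving out single libraries. Simulated data were drawn with the gene means, library sizes and common dispersion of these libraries. On them the rcMSC against rbMSC comparison found 8% of 1.25-fold, 79.6% of 1.5-fold, 96% of 2-fold and 100% of 4-fold changes. It made 7 false calls among 14693 genes. The simulated data held few changed genes and no outlying library such as rcMSC replicate 3, so these rates do not carry over directly. Promoter windows are from RefSeq (GRCr8), matched by symbol. Some genes that these rules would name are not reported here, and were left out of the list counts and family sums.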

Additional observations from a re-analysis of the deposited data

How the results depend on the processing

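Of 300 counts of called genes under alternatives (20 counts, 15 alternatives each), 290 stayed within 1.5 times their value. Many of these counts were small or 0 from the start, so this share says little about how firm single results are. Irx3, Irx5 and Meis2 were called higher under all 15 alternatives, with log2 fold changes of 1.32 to 1.51, 1.12 to 1.21 and 1.02 to 1.14. Members called higher numbered 3 to 5, and members called lower 0 to 2, when 1 library was left out. With limma voom and sample weights, where rcMSC replicate 3 had a weight of 0.222 and the others 1.26 to 1.46, 5 members were higher (Pbx3 added) and 2 lower (Meis1 at -0.26, Pknox1 at -0.17), with 29.5% of all genes called in each direction. DESeq2 called 4 members higher and 0 lower, where 3199 of 14836 genes were called higher and 3321 lower. Without rcMSC replicate 1 or replicate 2, Meis1 was at 0.071 and 0.098, with the sign reversed, and not called (range without 1 library -0.32 to 0.098). Pbx2 was at 0.0053 with no low-count filter, 0.0063 with limma, 0.023 without rbMSC replicate 3 and 0.011 without rcMSC replicate 3, with 0.864 as the lowest adjusted p (range without 1 library -0.022 to 0.023). The Hox genes called higher numbered 1 with no low-count filter and 0 to 1 without 1 library, each time Hoxb3, which the filter otherwise removes. The TALE cofactors called higher numbered 0 to 1 and those called lower 1 to 2 without 1 library, and 2 were lower with limma voom. The cause was not tested. Genes called over the whole table ranged from 2542 to 4512 higher and 2794 to 4558 lower without 1 library, both highest without rcMSC replicate 3. Without division by gene length, the share of Meis2 in its family was 30.8% in rbMSC and 49.9% in rcMSC.

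The replicate numbers showed no sign of pairing between the groups: deviations from group means correlated at -0.03, 0.02 and -0.05 for equal numbers. Such a check cannot show that the libraries were unpaired. With the replicate number as a block, 3046 genes were higher and 3251 lower, and the calls of the 9 members did not change (Pknox2 at 0.64, edgeR adjusted p = 0.0407). Irx1, Pbx4 and Irx6 had few counts and Irx4 had 0, and low expression and limited depth were not told apart for them.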
